A study of Arabidopsis thaliana with 70 samples.

Results

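Class III peroxidases are the secreted plant peroxidases, and the 55 listed Arabidopsis genes of the family were taken by their locus identifiers from a table of 33597 genes. All 55 were found in the table. For 15 of them the RefSeq annotation of the TAIR10.1 assembly gives a name, and the others are given by locus identifier, with no role assigned.

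Class III peroxidases act in the cell wall and apoplast, where they use hydrogen peroxide to couple monolignols into lignin, cross-link wall proteins and stiffen the wall. In another reaction cycle some of them produce reactive oxygen species themselves. PRX33 and PRX34 are the members known for their share in the apoplastic oxidative burst that follows the sensing of microbial molecules, next to the NADPH oxidase RBOHD. Other members are known from roots, with PER64 acting in lignin deposition at the Casparian strip of the endodermis and RHS19 named for its expression in root hairs.

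RNA was sequenced from the wild type (WT) and from rdd, the ros1 dml2 dml3 triple mutant, which lacks 3 DNA demethylases that act outside the seed. The study addresses the role of active demethylation in the response to flg22, the peptide of bacterial flagellin that plants sense. Seedlings of both genotypes, 10 days old and grown on plates, were taken at 0, 1 and 3 h of 100 nM flg22, with 3 libraries in each of the 6 groups. There was no seedling group without flg22 at 1 or 3 h, so time and flg22 cannot be told apart there. Leaves of 4-week-old soil-grown plants of both genotypes were inoculated by hand with water or 100 nM flg22 and taken at 24 h, with 3 libraries in each of the 4 groups. A further set of leaves got the same water or flg22 and then bacteria of Pseudomonas syringae, the hrcC mutant of DC3000, during 1 h, with 2 libraries in each of the 4 groups. hrcC bacteria lack a working type III secretion system and so inject no effectors. These 38 RNA libraries form 14 groups. Each value is an FPKM, the fragments of a gene scaled by its length and by the size of the library, so levels of different genes can be compared per length.

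The libraries held 904625 to 1231239 FPKM in total, and the deposited values contain no read counts, so the depth of each library is unknown. ROS1 and DML2 transcripts were not called lower in rdd in any comparison, and ROS1 was called higher in rdd in hrcC leaves, by 1.15 ± 0.14 (SE, adjusted p = 0.017) with water first and 1.03 ± 0.14 (SE, adjusted p = 0.016) with flg22 first. These ROS1 calls were lost without any one of the compared libraries except rdd flg22 replicate 2, with adjusted p of 0.065 to 0.13. ROS1 (AT2G36490) lay between 4.97 and 20.13 FPKM in WT and between 3.88 and 32.81 FPKM in rdd, and DML2 (AT3G10010) between 0.36 and 10.17 FPKM in WT and 0.18 and 7.85 FPKM in rdd. DML3 (AT4G34060) reached 3.57 FPKM in WT and at most 0.70 FPKM in rdd, and it was called lower in flg22 leaves at 24 h alone (-1.5 ± 0.19, adjusted p = 0.017). That call was lost without any one of the 6 libraries except WT flg22 replicate 3, with adjusted p of 0.051 to 0.11. Where the mutations lie in these genes is not given in the labels. Organelle genes took 3.026% to 5.54% of the FPKM in replicates 1 and 2 of the 24 h leaves and 0.073% to 0.098% in replicate 3, against 0.082% to 0.117% in the hrcC leaves. In seedlings they took 0.223% to 0.809%, except in rdd 3 h replicate 2 with 2.855%. That library also had 18555 genes above 0, where the other 17 seedling libraries had 20734 to 22032.

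The family was far broader in seedlings than in leaves. In the 6 seedling groups 49 to 51 members had a mean of at least 1 FPKM, while 16 did in water-treated leaves of either genotype. A total of 22 members stayed under 1 FPKM in all 20 leaf libraries and passed 1 FPKM in a seedling library. In both organs the most abundant member at rest was PRXR1, whose role is not given here. PRXR1 was at 1954.25, 2011.14 and 2183.9 FPKM in WT seedlings at 0 h and at 1838.73, 1805.72 and 1639.02 FPKM in WT water leaves, and the ranges of the groups lay close to each other. It made up 38.8% ± 0.7 (SD, n = 3) of the summed family FPKM in WT seedlings at 0 h and 76.5% ± 2.5 (SD, n = 3) in WT water leaves.

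**Figure D1:**
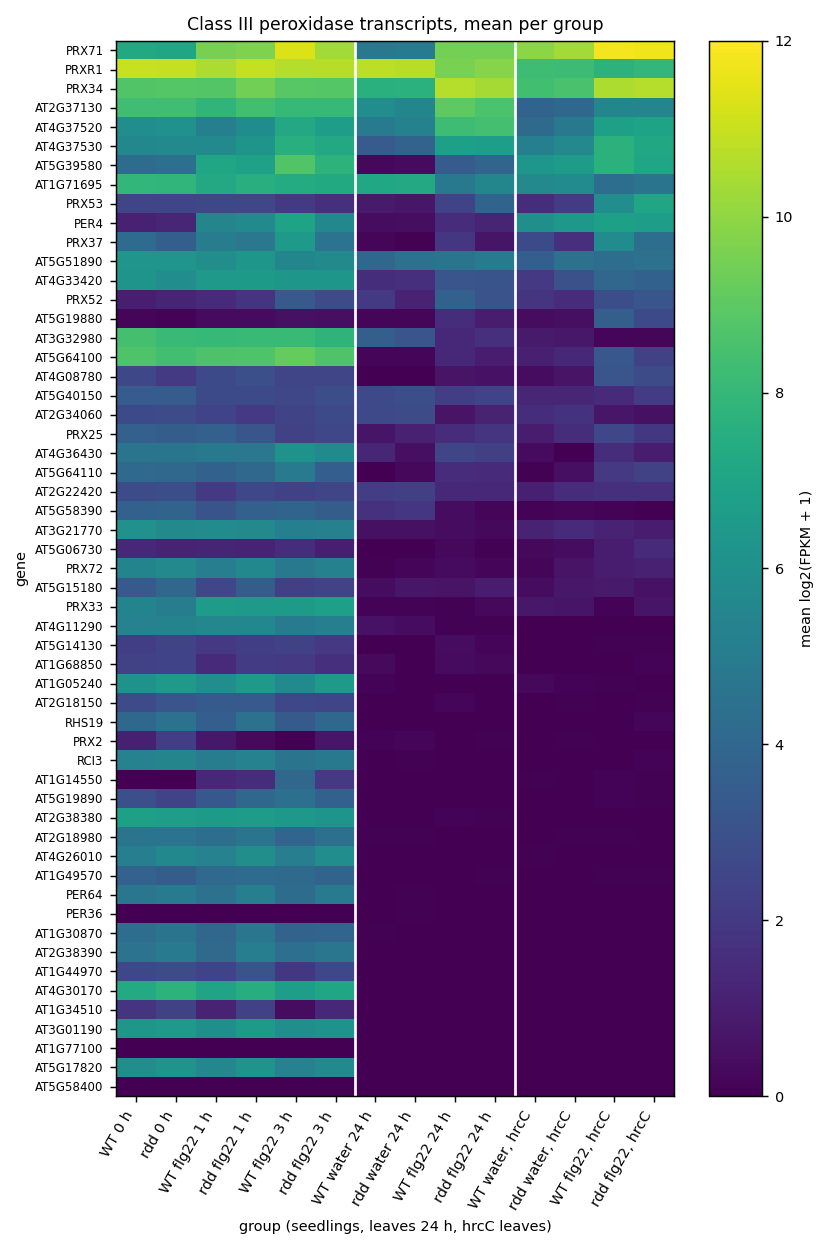
Mean log2(FPKM + 1) of each of the 55 peroxidase genes (rows, ordered by their highest leaf level) in the 14 groups (columns: seedlings, leaves at 24 h and hrcC leaves, separated by white lines). The lower part of the map is dark in all leaf groups: 22 members stayed under 1 FPKM in the 20 leaf libraries.

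The root-linked members were among those missing from leaves. PER64 was at 23.06, 22.92 and 29.32 FPKM in WT seedlings at 0 h and at 0 in all 3 WT water-leaf libraries. RHS19 was at 14.95, 13.56 and 18.54 FPKM in those seedlings and also at 0 in the 3 WT water-leaf libraries. RCI3, a gene known for its induction by cold, had 40.67, 34.09 and 42.05 FPKM there and 0 in those leaves. PRX72, which acts in lignin formation, had 36.54, 41.84 and 45.26 FPKM there and at most 0.07 FPKM in those leaves. For these 4 members every seedling library lay above every leaf library of WT. AT5G64100 differed most, with 363.14, 451.81 and 441.14 FPKM in WT seedlings at 0 h and 0.07, 0.11 and 0.18 FPKM in WT water leaves, a log2 difference of 8.54 ± 0.23 (SE, adjusted p = 4.6e-22). By limma on log2(FPKM + 1), 44 of the 52 members tested were higher in WT seedlings at 0 h than in WT water leaves and 0 were lower, where 60.8% of all genes tested were called, 25.7% higher and 35.1% lower. The median log2 difference was 2.94 over the members and -0.159 over all genes tested. Members passed the filter of this comparison through any of the 14 groups, so those present in seedlings alone could be higher or unchanged but not lower.

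The seedlings included roots and the leaf samples did not, and the markers moved with the family. All 8 root hair markers and all 7 endodermis markers tested were called higher in seedlings. In the leaf libraries the summed root hair markers reached at most 0.29 FPKM and the summed endodermis markers at most 2.51 FPKM, with 53.2 to 64.3 FPKM and 110 to 156 FPKM in WT seedlings at 0 h. EXPA18, LRX1 and RHD6 were at 0 in all 20 leaf libraries. Fewer cells of a type and less RNA per cell cannot be told apart in these whole-tissue samples. Organ, age and growth conditions differ together here and cannot be told apart.

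The reverse pattern was rare. AT5G19880 was the only member that reached 5 FPKM in a leaf library and stayed under 1.5 FPKM in all 18 seedling libraries. Only 3 listed genes stayed under 1 FPKM everywhere, namely AT1G77100, which was at 0 in all 38 libraries, AT5G58400 and PER36, a member known from the release of seed-coat mucilage.

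**Figure D2:**
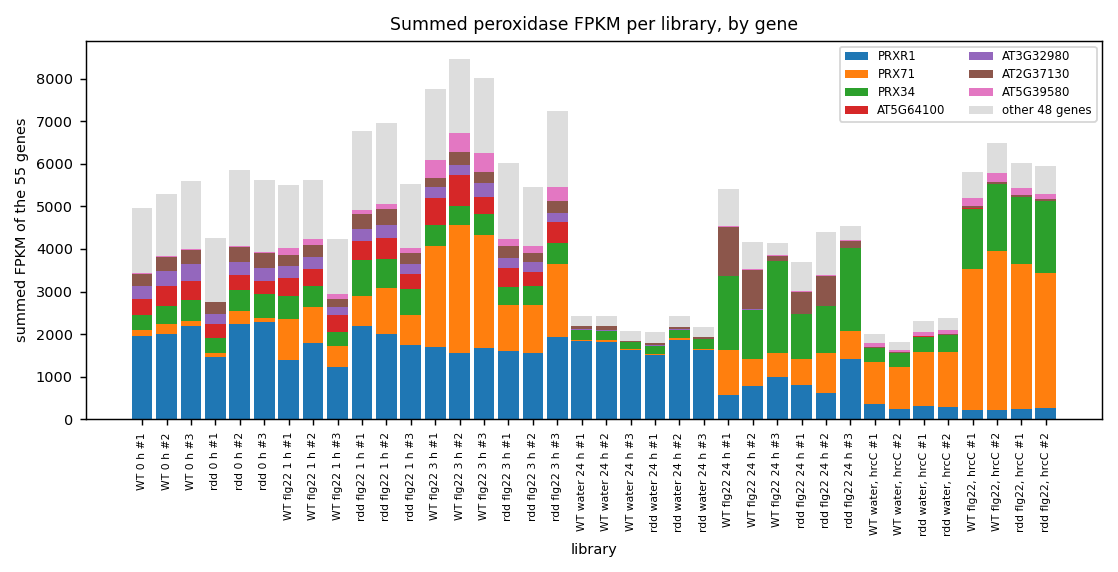
Summed FPKM of the 55 peroxidase genes in each of the 38 libraries (#1 to #3 are replicate numbers), with 7 abundant members in colour and the other 48 in grey. The WT 3 h and hrcC flg22 libraries are tall through PRX71 (orange), while PRXR1 (blue) fills most of the water-leaf bars.

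Summed over the family, peroxidase transcripts took 0.494% ± 0.044 (SD, n = 3) of all FPKM in WT seedlings at 0 h, 0.501% ± 0.082 at 1 h and 0.801% ± 0.041 at 3 h of flg22. In rdd the shares were 0.492% ± 0.085, 0.646% ± 0.084 and 0.615% ± 0.079 (SD, n = 3 each). The WT 3 h share was the highest of the 6 seedling groups. In leaves the share was 0.195% ± 0.006 with water and 0.411% ± 0.052 with flg22 in WT, and 0.193% ± 0.020 and 0.387% ± 0.055 in rdd (SD, n = 3 each). At 3 h in WT, PRX71 had replaced PRXR1 as the most abundant member, with 33.0% ± 2.6 (SD, n = 3) of the family.

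In seedlings flg22 was followed by a steep rise of a few members and a shallow fall of others. In WT at 1 h, 5 of the 51 members tested rose and 5 fell, where 17.3% of all genes tested were called, 9.62% higher and 7.64% lower. At 3 h, 10 rose and 10 fell, where 18.9% of all genes were called, 12.1% higher and 6.81% lower. In rdd, 9 rose and 2 fell at 1 h, where 16.8% of all genes were called, 10.2% higher and 6.58% lower. At 3 h in rdd, 9 rose and 7 fell, where 16.1% of all genes were called, 8.04% higher and 8.03% lower. At 1 h the shares of members called were 19.6% in WT and 21.6% in rdd, near those of all genes. At 3 h they were 39.2% and 31.4%, and these shares were not tested against those of all genes. The median log2 change of the members was -0.32 in WT and -0.25 in rdd at 3 h, beside 0.077 and -0.142 over all genes.

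PER4, a peroxidase gene widely used as a marker of the response to microbial molecules, rose most. Its WT values were 2.19, 1.00 and 0.59 FPKM at 0 h, 53.86, 52.24 and 29.16 FPKM at 1 h and 122.19, 137.97 and 117.57 FPKM at 3 h. The rdd values were 1.35, 1.68 and 1.26 FPKM at 0 h, 52.45, 42.53 and 59.77 FPKM at 1 h and 34.54, 36.62 and 81.89 FPKM at 3 h. Every treated library lay far above every 0 h library in both genotypes, and WT went on rising to 3 h while the rdd libraries at 1 h and 3 h overlapped. The log2 change at 3 h was 5.87 ± 0.31 (SE, adjusted p = 8.1e-10) in WT and 4.31 ± 0.31 (SE, adjusted p = 3e-08) in rdd.

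AT5G39580, which has no name in the annotation used, followed a like course. In WT it was at 14.89, 20.56 and 18.02 FPKM at 0 h, 178.58, 138.48 and 103.19 FPKM at 1 h and 410, 429.27 and 422.77 FPKM at 3 h. The rdd libraries had 14.73, 31.38 and 17.31 FPKM at 0 h, 108.44, 114.38 and 120.52 FPKM at 1 h and 176.63, 167.64 and 321.85 FPKM at 3 h. The 3 time points did not overlap in either genotype, and all rdd libraries at 3 h were below all WT libraries at 3 h. The log2 change at 3 h was 4.50 ± 0.26 (SE, adjusted p = 2.7e-09) in WT and 3.34 ± 0.26 (SE, adjusted p = 1e-07) in rdd.

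PRX71, known from lignin formation and from the response to cell wall damage, started high and became the most abundant member in WT. It was at 132.47, 218.24 and 134.3 FPKM in WT at 0 h, 963.37, 850.61 and 501.45 FPKM at 1 h and 2359.01, 3017.84 and 2647.81 FPKM at 3 h. In the mutant it was at 90.95, 320.95 and 76.62 FPKM at 0 h, 723.75, 1098.86 and 698.48 FPKM at 1 h and 1081.08, 1127.54 and 1722.98 FPKM at 3 h. No 0 h library reached a treated one, and the rdd libraries at 1 h and 3 h overlapped. The log2 change at 3 h was 4.07 ± 0.41 (SE, adjusted p = 1.3e-06) in WT and 3.28 ± 0.41 (SE, adjusted p = 2e-05) in rdd.

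AT1G14550, the neighbour of PER4 on the chromosome, was listed at 0 in all 6 libraries at 0 h. It was at 1.32, 1.81 and 1.66 FPKM in WT at 1 h and at 14.68, 19.59 and 10.39 FPKM at 3 h. In rdd it was at 1.37, 2.83 and 1.94 FPKM at 1 h and at 1.17, 7.06 and 2.52 FPKM at 3 h. The WT libraries at 3 h stood above all others and the rdd libraries at 1 h and 3 h overlapped. The change at 3 h on the log2(FPKM + 1) scale was 3.95 ± 0.34 (SE, adjusted p = 2.5e-07) in WT and 1.98 ± 0.34 (SE, adjusted p = 0.00064) in rdd. AT1G14550 passed the filter through flg22 libraries alone, so its change from 0 h could only be a rise.

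**Figure D3:**
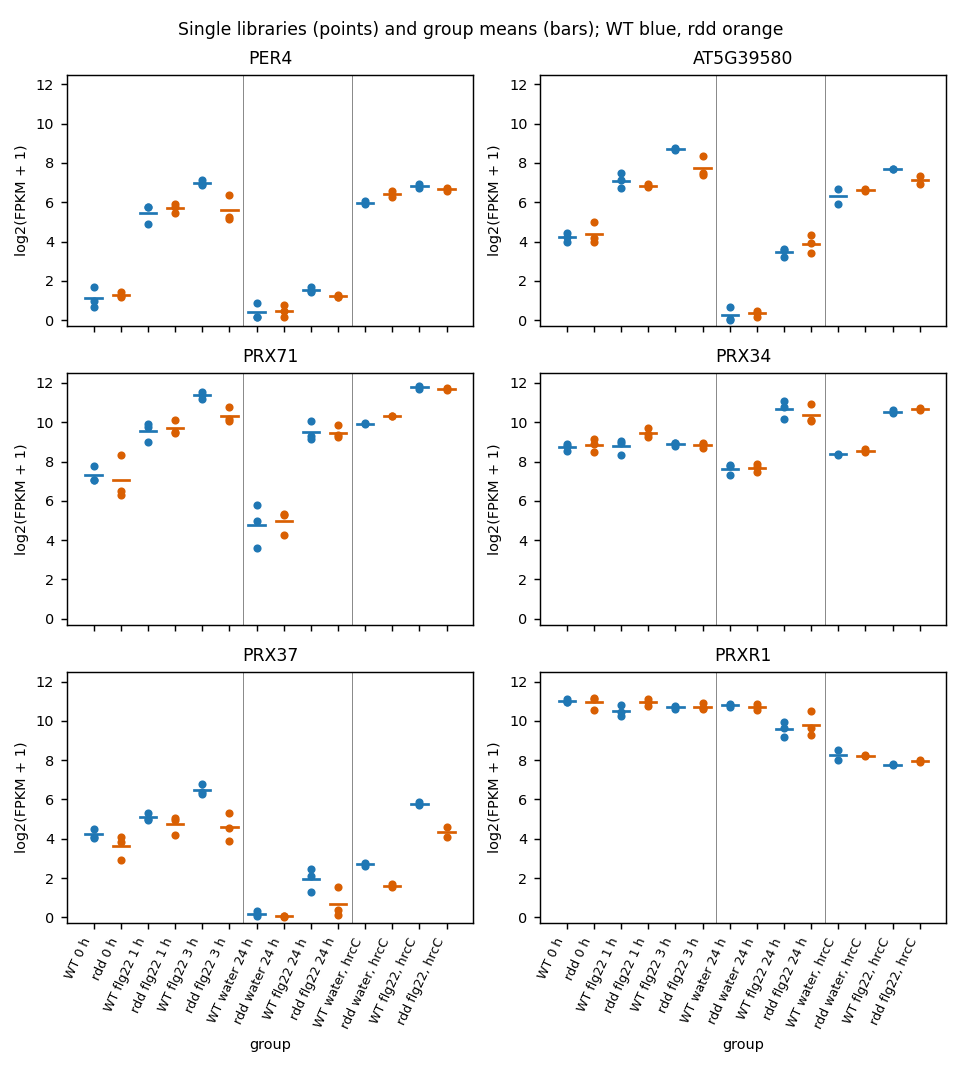
log2(FPKM + 1) of 6 members in every library (points) with the group mean (bar), for WT (blue) and rdd (orange), with vertical lines between seedlings, 24 h leaves and hrcC leaves. PER4, AT5G39580, PRX71 and PRX37 climb from 0 h to 3 h in WT, with the rdd points at 3 h below the WT points, and PRXR1 is lower in the hrcC leaves than in the other sets.

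The genes linked to the oxidative burst behaved differently from each other. PRX33 was at 42.76, 40.15 and 42.48 FPKM in WT at 0 h, 117.19, 84.53 and 85.07 FPKM at 1 h and 102.89, 84.97 and 93.12 FPKM at 3 h. In the mutant it was at 33.55, 35.07 and 28.97 FPKM at 0 h, 84.33, 87.16 and 90.73 FPKM at 1 h and 115.01, 98.33 and 114.69 FPKM at 3 h. The 0 h libraries were the lowest in both genotypes. The log2 change was 1.16 ± 0.13 (SE, adjusted p = 3.1e-06) at 1 h and 1.14 ± 0.13 (SE, adjusted p = 5.4e-06) at 3 h in WT. In rdd it was 1.40 ± 0.13 (SE, adjusted p = 2.9e-07) at 1 h and 1.72 ± 0.13 (SE, adjusted p = 5.8e-08) at 3 h.

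PRX34 was more abundant than PRX33 in every library. In WT seedlings it was at 372.48, 441.51 and 477.99 FPKM at 0 h, 535.13, 487.06 and 320.07 FPKM at 1 h and 498.7, 441.11 and 489.34 FPKM at 3 h, with overlapping groups and no call. In rdd it was at 356.85, 480.9 and 561.02 FPKM at 0 h, 839.29, 675.82 and 615.99 FPKM at 1 h and 418.77, 467.87 and 487.24 FPKM at 3 h. Only the 1 h libraries of rdd stood above those at 0 h, with a log2 change of 0.62 ± 0.19 (SE, adjusted p = 0.031). That call was lost without rdd 0 h replicate 1 or 2 or rdd 1 h replicate 1 or 2, with adjusted p of 0.051 to 0.15.

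PRX37 is a wall peroxidase known from the dwarf growth of plants that overexpress it. In WT it rose at 1 h and further at 3 h, with a call at 3 h alone. It was at 16.01, 15.53 and 21.86 FPKM in WT at 0 h, 38.64, 31.48 and 29.79 FPKM at 1 h and 81.44, 76.08 and 109.37 FPKM at 3 h. In the mutant it was at 6.43, 16.13 and 13.38 FPKM at 0 h, 32.69, 30.51 and 17.3 FPKM at 1 h and 22.5, 13.89 and 38.02 FPKM at 3 h. The WT groups did not overlap, while rdd at 3 h overlapped both rdd at 0 h and rdd at 1 h. The log2 change at 3 h was 2.26 ± 0.33 (SE, adjusted p = 0.00011) in WT, and in rdd the call was made at 1 h alone, with 1.14 ± 0.33 (SE, adjusted p = 0.026). The rdd call at 1 h was lost without rdd 0 h replicate 1 (adjusted p = 0.13), without rdd 1 h replicate 1 (0.11) and without rdd 1 h replicate 2 (0.10).

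Among the members named for lignin formation, PRX52 and PRX25 moved in opposite directions. PRX52 was at 0.99, 0.79 and 1.36 FPKM in WT at 0 h and at 9.35, 10.48 and 7.88 FPKM at 3 h, and these libraries did not overlap. Its log2 change at 3 h was 2.32 ± 0.45 (SE, adjusted p = 0.0012) in WT and 1.48 ± 0.45 (SE, adjusted p = 0.033) in rdd. The rdd call was lost without rdd 3 h replicate 2 (adjusted p = 0.15), without rdd 0 h replicate 3 (0.15) and without rdd 0 h replicate 2 (0.051). PRX25 was at 11.4, 11.77 and 12.84 FPKM in WT at 0 h and at 3.93, 3.25 and 5.12 FPKM at 3 h, again without overlap. Its log2 change at 3 h was -1.37 ± 0.24 (SE, adjusted p = 0.00062) in WT and -0.93 ± 0.24 (SE, adjusted p = 0.015) in rdd, and the rdd call was lost without rdd 3 h replicate 2 (adjusted p = 0.073). PRX53, PRX72 and PER64 were not called in either genotype at 1 or 3 h.

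The adjacent members AT4G37520 and AT4G37530 rose at 3 h in WT. AT4G37520 was at 54.4, 65.85 and 55.92 FPKM at 0 h, 41.27, 37.23 and 29.67 FPKM at 1 h and 121.72, 165.07 and 168.68 FPKM at 3 h. Its 1 h libraries were the lowest and its 3 h libraries the highest, with a log2 change at 3 h of 1.35 ± 0.22 (SE, adjusted p = 0.00031). The fall at 1 h, -0.70 ± 0.22 (SE, adjusted p = 0.039), was lost without any one of 5 of the 6 libraries compared, with adjusted p up to 0.16. AT4G37530 was at 38.72, 52.57 and 51.83 FPKM at 0 h and at 161.13, 194.21 and 212.27 FPKM at 3 h, with a log2 change of 1.97 ± 0.19 (SE, adjusted p = 1.1e-06).

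The falls were shallow and spread over many members. In WT at 3 h the 10 log2 changes of fallen members ran from -0.60 for AT1G71695 to -1.43 for AT1G34510, against 1.14 to 5.87 for the 10 that rose. AT5G40150, the member that fell at both times in both genotypes, was at 10.25, 10.5 and 10.28 FPKM in WT at 0 h, 4.78, 5.61 and 6.34 FPKM at 1 h and 4.36, 4.96 and 5.53 FPKM at 3 h. Every treated library was below every 0 h library, with log2 changes of -0.79 ± 0.20 (SE, adjusted p = 0.0089) at 1 h and -0.94 ± 0.20 (SE, adjusted p = 0.0028) at 3 h in WT. In rdd the changes were -0.80 ± 0.20 (SE, adjusted p = 0.0087) and -0.61 ± 0.20 (SE, adjusted p = 0.047). The calls at 1 h were lost without WT 1 h replicate 1 (adjusted p = 0.053) and without rdd 1 h replicate 2 (0.055), and the rdd call at 3 h without rdd 0 h replicate 1 or 2 or rdd 3 h replicate 3 (0.098 to 0.17).

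AT5G15180 was at 10.88, 7.66 and 9.54 FPKM in WT at 0 h and 3.67, 4.79 and 3.17 FPKM at 3 h, a log2 change of -1.09 ± 0.28 (SE, adjusted p = 0.012), lost without WT 0 h replicate 1 (0.059) or WT 3 h replicate 3 (0.051). AT5G51890 went from 74.83, 76.69 and 75.04 FPKM to 51.75, 35.48 and 45.64 FPKM, a log2 change of -0.77 ± 0.15 (SE, adjusted p = 0.0013). AT4G30170 went from 204.68, 133.4 and 157.28 FPKM to 102.56, 107 and 92.43 FPKM, a log2 change of -0.69 ± 0.23 (SE, adjusted p = 0.045) that was lost without any library except WT 0 h replicate 2. In these 3 genes the groups did not overlap. AT1G71695 was at 227.81, 260.69 and 259.5 FPKM in WT at 0 h and at 142.84, 159.46 and 193.38 FPKM at 3 h. AT3G21770 went from 63.02, 69.48 and 65.61 FPKM to 31.2, 35.07 and 38.56 FPKM, a log2 change of -0.90 ± 0.14 (SE, adjusted p = 0.00022). In both genes every 3 h library was below every 0 h library. The AT1G71695 call (-0.60 ± 0.17, adjusted p = 0.017) was lost without WT 0 h replicate 2 or 3 or WT 3 h replicate 1 or 2, with adjusted p of 0.056 to 0.086. RCI3 was at 23.41, 19.2 and 29.97 FPKM in WT at 3 h, all below its 0 h libraries, with a log2 change of -0.68 ± 0.22 (SE, adjusted p = 0.037). The RCI3 call was lost without WT 0 h replicate 1 or 3 or WT 3 h replicate 1 or 2, with adjusted p of 0.095 to 0.17.

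Markers of several cell types moved with these falls. In WT at 3 h, 5 of the 8 root hair markers and 1 of the 7 endodermis markers fell, and the summed root hair markers went from 53.2 to 64.3 FPKM at 0 h to 22.8 to 39.2 FPKM at 3 h. The summed endodermis markers were at 110 to 156 FPKM at 0 h and 84.2 to 105 FPKM at 3 h. Of the 5 mesophyll markers 4 fell in WT, from a sum of 29371 to 32584 FPKM at 0 h to 20354 to 24016 FPKM at 3 h, and 1 of 5 xylem markers fell. In rdd, 2 of 8 root hair, 2 of 5 mesophyll, 0 of 7 endodermis and 0 of 5 xylem markers fell. The part of these shifts in the falls of the peroxidases was not tested.

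Most rises were called in both genotypes. At 1 h, 5 members were called higher in both, which is 100% of those called in WT and 55.6% of those called in rdd. At 3 h, 8 were called higher in both, 80% of the WT calls and 88.9% of the rdd calls. The shared members were PER4, AT1G14550, PRX33, AT4G36430, AT4G37530, PRX52, AT5G39580 and PRX71. Of these, AT1G14550 was tested through flg22 libraries alone and could only rise. Of the falls at 1 h, 1 was called in both, AT5G40150, which is 20% of the 5 WT calls and 50% of the 2 rdd calls. Of the falls at 3 h, 6 were called in both, 60% of the WT calls and 85.7% of the rdd calls. The share of all genes called in both genotypes was not worked out, so this overlap cannot be read as particular to the family.

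**Figure D4:**
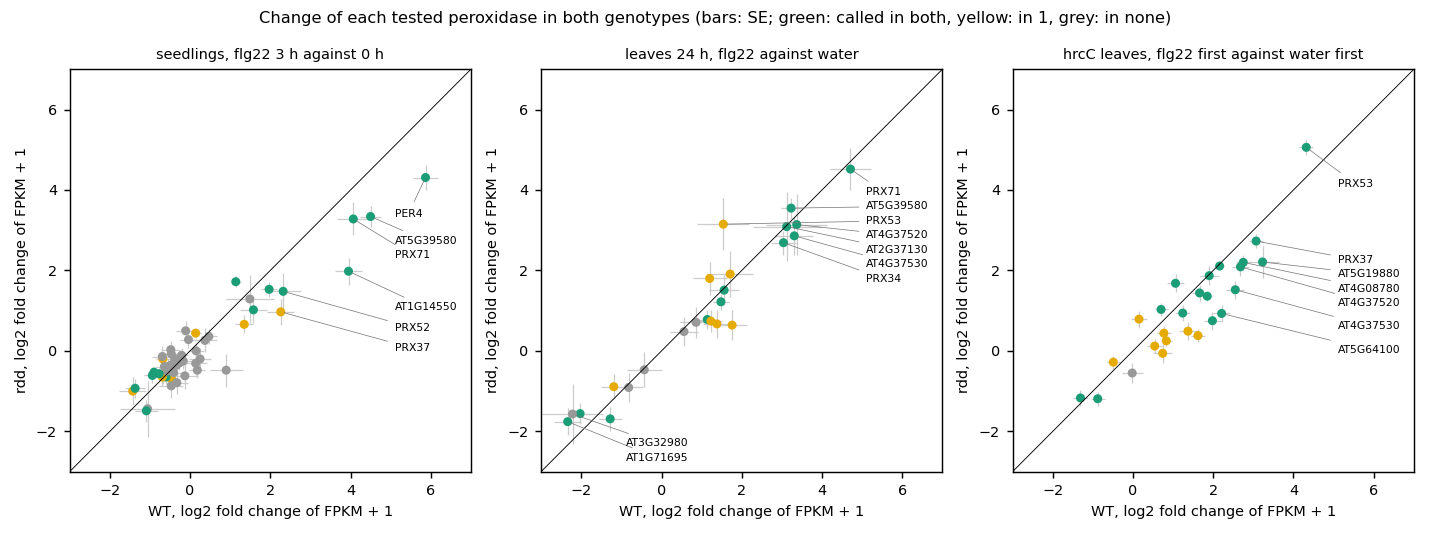
log2 change of FPKM + 1 with flg22 in WT (x axis) and rdd (y axis) for every tested peroxidase, with SE bars and a line of equal change, in seedlings (3 h), leaves (24 h) and hrcC leaves. Green points were called in both genotypes, yellow in 1 and grey in none, and PER4, AT1G14550 and PRX37 lie below the line in seedlings.

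A direct comparison of genotypes found 3 members lower in rdd at 3 h, where 0.953% of all genes tested were called, 0.402% higher and 0.551% lower. PRX37 was at 76.08 to 109.37 FPKM in WT and 13.89 to 38.02 FPKM in rdd, a log2 difference of -1.89 ± 0.33 (SE, adjusted p = 0.0099). AT1G14550 was at 10.39 to 19.59 FPKM in WT and 1.17 to 7.06 FPKM in rdd, a log2 difference of -1.97 ± 0.34 (SE, adjusted p = 0.0086). PER4 was at 117.57 to 137.97 FPKM in WT and 34.54 to 81.89 FPKM in rdd, a log2 difference of -1.40 ± 0.31 (SE, adjusted p = 0.038). In all 3 the libraries of WT and rdd did not overlap. With only the 6 compared libraries in the fit, none of the 3 was called, with adjusted p of 0.097 for PRX37, 0.21 for AT1G14550 and 0.18 for PER4. The median log2 difference between genotypes at 3 h was 0.04 over the members and -0.137 over all genes tested.

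These calls rested on few libraries. Without rdd 3 h replicate 2, the library that stands apart, AT1G14550 (-2.48 ± 0.26, adjusted p = 9e-05) and PRX37 (-1.55 ± 0.33, adjusted p = 0.043) were still called and PER4 was not (-1.22 ± 0.33, adjusted p = 0.12). The PER4 call was also lost without rdd 3 h replicate 1 (adjusted p = 0.15) and without each WT 3 h library (adjusted p = 0.099 to 0.15). The PRX37 call was lost without WT 3 h replicate 3 (adjusted p = 0.063) and the AT1G14550 call without WT 3 h replicate 2 (adjusted p = 0.069). The number of members called moved from 3 to 1 without WT 3 h replicate 2 or 3, and to 8, 5 lower and 3 higher, without rdd 3 h replicate 3.

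Cell type markers differed between the genotypes as well. At 3 h, 2 of 7 endodermis, 1 of 5 xylem and 1 of 5 mesophyll markers were called higher in rdd, with 0 of 8 root hair markers and 0 lower in any of these lists. The summed root hair markers were at 22.8 to 39.2 FPKM in WT and 48.2 to 53.8 FPKM in rdd, without overlap. The summed endodermis markers were at 84.2 to 105 FPKM in WT and 138 to 209 FPKM in rdd, also without overlap, and neither sum overlapped at 0 h, where rdd had 72 to 95.6 FPKM and 173 to 219 FPKM. Xylem and mesophyll sums overlapped at 3 h. Their part in the lower levels of the 3 peroxidases was not tested.

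The difference in the response itself was not called for any member. Its test, the change at 3 h in rdd minus that in WT, gave -1.56 ± 0.43 (SE, adjusted p = 0.56) for PER4, -1.97 ± 0.48 (SE, adjusted p = 0.56) for AT1G14550 and -1.29 ± 0.47 (SE, adjusted p = 0.56) for PRX37. By limma 0 members were called at 3 h and 8 had an unadjusted p under 0.05, where 0.00529% of all genes were called. At 1 h 0 members were called and 3 had an unadjusted p under 0.05, where 0.0106% of all genes were called. The share of all genes with an unadjusted p under 0.05 was not worked out, so the 8 and the 3 have no like share beside them. Without rdd 3 h replicate 2, the library that stands apart, 1 member was called at 3 h, AT1G14550 with -2.48 ± 0.35 (SE, adjusted p = 0.013).

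At 0 h and 1 h no member was called between genotypes. At 0 h, 4 members had an unadjusted p under 0.05, where 0.323% of all genes were called by limma. At 1 h, 22 members had an unadjusted p under 0.05. The share of all genes under that unadjusted limit was not worked out, so the 4 and the 22 have no like share beside them. By adjusted p 0 members were called at 1 h, where 0.286% of all genes were called. Without rdd 1 h replicate 3 the count of calls was 2, and without WT 1 h replicate 2 it was 1. PRX71 and AT5G39580 were lower in all 3 rdd libraries than in all 3 WT libraries at 3 h but did not pass the test, with log2 differences of -1.05 ± 0.41 (SE, adjusted p = 0.17) and -0.98 ± 0.26 (SE, adjusted p = 0.083). Without rdd 3 h replicate 3, AT5G39580 was called at -1.28 ± 0.25 (SE, adjusted p = 0.012).

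In leaves at 24 h, flg22 was followed by a rise of PRX71, PRX34 and several unnamed members and by a fall of PRXR1 and AT1G71695. In WT 12 of the 24 members tested rose and 4 fell, where 23.1% of all genes tested were called, 14.8% higher and 8.3% lower. In rdd 12 rose and 3 fell, where 16.5% were called, 12.8% higher and 3.72% lower. The median log2 change of the members tested was 1.31 in WT and 0.76 in rdd, beside 0.095 and 0.178 over all genes. Members entered these 24 by reaching 1 FPKM in 3 leaf libraries. PER4, PRX37, AT5G19880, AT5G39580, AT5G64100 and AT5G64110 did so through flg22 leaves alone, so they could only rise. All of them are among the 12 WT rises, so these counts and medians lean upward and cannot be set plainly beside those of all genes. All 16 WT calls and all 15 rdd calls had the same direction in each of the 3 replicates. This follows from water and flg22 groups that did not overlap in these members, so it adds no support.

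PRX34, which had shown little change in seedlings, became the most abundant member. It was at 221.91, 217.82 and 159.52 FPKM with water and at 1742.41, 1157.03 and 2140.04 FPKM with flg22 in WT. In rdd it was at 173.97, 206.66 and 234.45 FPKM with water and at 1068.52, 1104.86 and 1960.17 FPKM with flg22. Each flg22 library was well above each water library. The log2 change was 3.04 ± 0.30 (SE, adjusted p = 0.00024) in WT and 2.69 ± 0.30 (SE, adjusted p = 0.00082) in rdd. PRX33, its partner in the oxidative burst, stayed at or below 0.32 FPKM in the 24 h leaves and was not tested there.

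PRX71 again rose steeply, and its libraries did not overlap. It was at 30.28, 54.54 and 11.01 FPKM with water and at 1050.56, 627.16 and 569.86 FPKM with flg22 in WT, a log2 change of 4.71 ± 0.52 (SE, adjusted p = 0.00038). In the mutant it was at 38.73, 37.91 and 18.4 FPKM with water and at 608.62, 916.81 and 643.05 FPKM with flg22, a log2 change of 4.52 ± 0.52 (SE, adjusted p = 0.00092). AT5G39580 rose from 0.60, 0.06 and 0 FPKM to 11.28, 11.09 and 8.4 FPKM in WT, without overlap, a log2 change of 3.23 ± 0.26 (SE, adjusted p = 9.9e-05). PER4 was low in these leaves, with 0.85, 0.11 and 0.12 FPKM with water and 2.26, 1.70 and 1.77 FPKM with flg22 in WT, a log2 change of 1.14 ± 0.23 (SE, adjusted p = 0.0068). PER4 and AT5G39580 passed the filter through flg22 leaves alone, so their change here could only be a rise.

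AT2G37130, AT4G37520 and AT4G37530 rose as well, and replicate 3 gave the smallest rise of AT2G37130 and AT4G37520. AT2G37130 was at 78.2, 94.34 and 26.97 FPKM with water and at 1145.49, 929.98 and 129.24 FPKM with flg22 in WT. Replicate 3 was the lowest in both groups, and the fold was smallest there, with log2 changes of 3.86, 3.29 and 2.22 in replicates 1, 2 and 3. AT4G37520 was at 36, 30.72 and 20.65 FPKM with water and at 635.33, 437.9 and 100.58 FPKM with flg22 in WT, with log2 changes of 4.1, 3.79 and 2.23. AT4G37530 was at 13.82, 14.43 and 4.76 FPKM with water and at 137.47, 103.44 and 87.7 FPKM with flg22 in WT, a log2 change of 3.31 ± 0.47 (SE, adjusted p = 0.0012). Its log2 changes in replicates 1, 2 and 3 were 3.22, 2.76 and 3.94, so its rise was largest in replicate 3. Replicate 3 is the one with the low organelle share, and its part in these values was not tested.

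**Figure D5:**
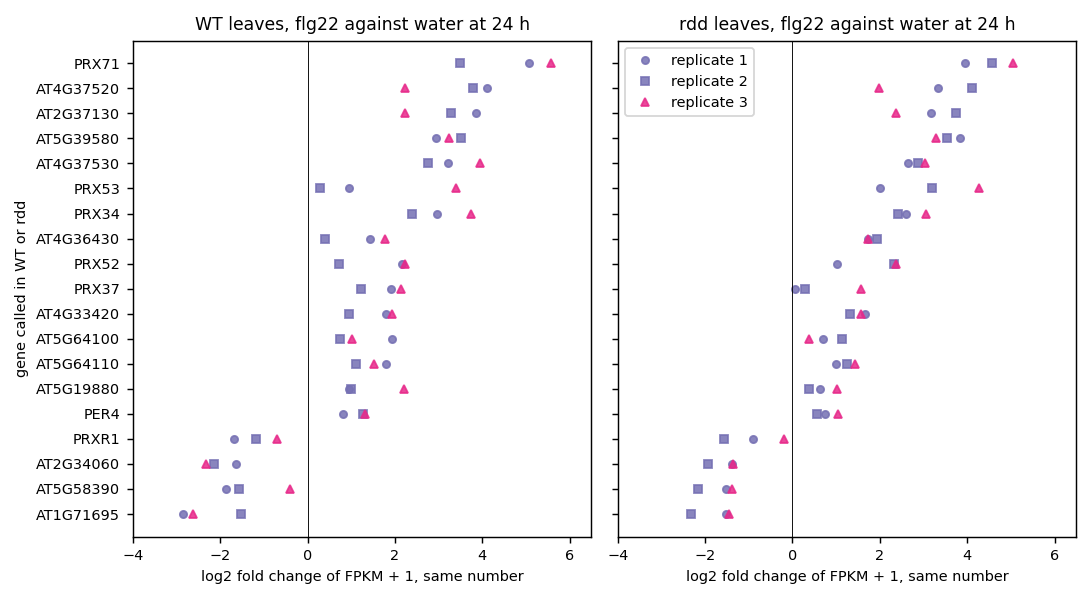
log2 change of FPKM + 1 with flg22 in 24 h leaves for the members called in WT or rdd (rows), computed within each replicate number, in WT (left) and rdd (right). Replicate 3 (triangles) gives the smallest rise of AT2G37130 and AT4G37520 and the largest for PRX71 and PRX34.

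The log2 change over all 3 replicates was 3.12 ± 0.85 (SE, adjusted p = 0.025) for AT2G37130 and 3.37 ± 0.76 (SE, adjusted p = 0.011) for AT4G37520 in WT. The AT2G37130 call was lost without WT water replicate 1 (adjusted p = 0.053) or 3 (0.079) and without WT flg22 replicate 1 (0.11) or 2 (0.081). The AT4G37520 call was lost without WT flg22 replicate 1 (adjusted p = 0.052). With the replicate number as a block, the SE fell to 0.39 and 0.45 and both were called, with adjusted p of 0.00045 and 0.00057. In rdd AT2G37130 changed by 3.09 ± 0.85 (SE, adjusted p = 0.035) and AT4G37520 by 3.14 ± 0.76 (SE, adjusted p = 0.021), and both calls were lost without any one of the rdd water libraries or of rdd flg22 replicates 1 and 2.

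PRXR1 and AT1G71695, abundant members at rest, fell. PRXR1 was at 1838.73, 1805.72 and 1639.02 FPKM with water and at 575.11, 792.04 and 998.35 FPKM with flg22 in WT, without overlap, a log2 change of -1.19 ± 0.31 (SE, adjusted p = 0.020). That call was lost without WT water replicate 1 or 2 (adjusted p = 0.062 each) and without WT flg22 replicate 1 (0.087). The rdd libraries of PRXR1 were at 1503.66, 1864.32 and 1639.11 FPKM with water and at 803.3, 630.34 and 1424.72 FPKM with flg22. It was not called in rdd as such, and it was called with the replicate block, at -0.89 ± 0.26 (SE, adjusted p = 0.025). AT1G71695 was at 143.9, 124.46 and 169.22 FPKM with water and at 19.01, 42.61 and 26.45 FPKM with flg22 in WT, a log2 change of -2.34 ± 0.34 (SE, adjusted p = 0.0014). In rdd it was at 157.43, 134.83 and 163.02 FPKM and at 54.52, 26.13 and 58.82 FPKM, a log2 change of -1.76 ± 0.34 (SE, adjusted p = 0.0086), and the groups did not overlap in either genotype.

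AT2G34060 fell too, from 3.52, 5.7 and 7.17 FPKM with water to 0.46, 0.52 and 0.62 FPKM with flg22 in WT, without overlap, a log2 change of -2.03 ± 0.27 (SE, adjusted p = 0.00088). Its change in rdd was -1.56 ± 0.27 (SE, adjusted p = 0.0053).

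With the replicate block, in which the replicate number of the leaves is a term of the fit, 15 members rose and 5 fell in WT and 13 rose and 6 fell in rdd. In replicates 1 and 2 alone, an alternative chosen after seeing the data, 14 rose and 7 fell in either genotype. The shares of all genes called in these fits were not worked out, so the counts cannot be set beside them. Of the 5 mesophyll markers, 2 fell in WT and 1 in rdd, and their summed level went from 33025 to 43224 FPKM with water to 13630 to 21347 FPKM with flg22 in WT. Their part in the falls of PRXR1 and AT1G71695 was not tested.

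Between the genotypes no member was called in these leaves. In water leaves 0 members were called by limma and 0 had an unadjusted p under 0.05, where 0.0881% of all genes were called. In flg22 leaves 0 were called and 2 had an unadjusted p under 0.05, where 0.171% were called. For the difference in response 0 were called and 0 had an unadjusted p under 0.05, where 0% of all genes were called. These shares of all genes are by adjusted p, and those by unadjusted p were not worked out. The flg22 response was called in both genotypes for 9 rising members, 75% of the calls of each genotype, and for 3 falling members, 75% of the WT calls and 100% of the rdd calls. How many of all genes were called in both was not worked out, so these overlaps have no share beside them. PRX53, a lignin-linked member, was called with flg22 in rdd alone, where it was at 0.71, 0.45 and 0.76 FPKM with water and at 5.89, 12.25 and 32.75 FPKM with flg22. In WT it was at 0.78, 1.60 and 0.33 FPKM and at 2.41, 2.18 and 13.02 FPKM, so the flg22 groups overlapped, and the difference in response was 1.61 ± 0.92 (SE, adjusted p = 1).

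In leaves that met hrcC bacteria for 1 h, earlier flg22 was followed by higher levels of most members tested. In WT 21 of the 26 members tested were higher after flg22 than after water and 3 were lower, where 45.4% of all genes tested were called, 22.4% higher and 23% lower. In rdd 16 were higher and 2 lower, where 40.6% were called, 22% higher and 18.6% lower. The median log2 difference over the members was 1.5 in WT and 0.94 in rdd, beside -0.004 and 0.027 over all genes. Each group has 2 libraries here. Members entered these 26 by reaching 1 FPKM in 2 libraries. AT4G08780, AT4G36430, AT5G06730, AT5G19880, AT5G64110 and PRX72 did so after flg22 alone, so these could only be higher. All of them are among the 21 WT calls, so these counts and medians lean upward. Of the rises, 15 were called in both genotypes, 71.4% of the WT calls and 93.8% of the rdd calls. The share of all genes called higher in both was not worked out, so this overlap has no share beside it.

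PRX53 gave the largest log2 difference of the members in both genotypes. It was at 2.06 and 1.91 FPKM with water first and at 48.03 and 71.56 FPKM with flg22 first in WT, a log2 difference of 4.32 ± 0.18 (SE, adjusted p = 1.7e-05). In the mutant it was at 2.91 and 3.48 FPKM with water first and at 143.27 and 133.46 FPKM with flg22 first, a log2 difference of 5.06 ± 0.18 (SE, adjusted p = 2.4e-05). Both rdd libraries with flg22 first lay above both WT libraries, and its seedling levels did not pass 6.5 FPKM in any library.

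PRX37 rose in both genotypes from different levels. It was at 5.89 and 5.20 FPKM with water first and at 50.81 and 57.26 FPKM with flg22 first in WT, a log2 difference of 3.07 ± 0.18 (SE, adjusted p = 4.6e-05). In rdd it was at 2.2 and 1.94 FPKM with water first and at 15.81 and 23.63 FPKM with flg22 first, a log2 difference of 2.73 ± 0.18 (SE, adjusted p = 1e-04). The rdd libraries lay below the WT libraries in both treatments. AT5G19880, which stayed low in seedlings, was at 0.25 and 0.39 FPKM with water first and at 10.24 and 12.6 FPKM with flg22 first in WT, a log2 difference of 3.23 ± 0.40 (SE, adjusted p = 0.00075). AT5G19880 was tested here through flg22 libraries alone and could only be higher.

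The abundant members moved as in the 24 h leaves. PRX34 was at 324.59 and 338.85 FPKM with water first and at 1407.21 and 1574.32 FPKM with flg22 first in WT, a log2 difference of 2.16 ± 0.11 (SE, adjusted p = 2.9e-05). PRX71 was at 978.82 and 965.39 FPKM with water first and at 3316.06 and 3729.77 FPKM with flg22 first in WT, a log2 difference of 1.85 ± 0.11 (SE, adjusted p = 4.6e-05). With flg22 first PRX71 made up 57.4% ± 0.2 (SD, n = 2) of the family in WT and 55.2% ± 2.3 (SD, n = 2) in rdd. AT1G71695 went the other way, from 55.52 and 44.3 FPKM to 22.2 and 17.07 FPKM in WT, a log2 difference of -1.31 ± 0.19 (SE, adjusted p = 0.0012). None of these 3 genes had overlapping groups in WT. All 5 mesophyll markers were lower after flg22 in both genotypes, and their sum went from 22810 to 27301 FPKM to 7920 to 10018 FPKM in WT. The part of this shift in the peroxidase differences was not tested.

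PRX37 was the member called between genotypes in both hrcC treatments. With water first it was lower in rdd by a log2 difference of -1.09 ± 0.18 (SE, adjusted p = 0.044), the 1 call among members where 0.945% of all genes were called, 0.641% higher and 0.304% lower. That call was lost without any one of the 4 libraries, with adjusted p of 0.14 to 0.21. With flg22 first it was lower by -1.43 ± 0.18 (SE, adjusted p = 0.011), and PRX53 was higher by 1.22 ± 0.18 (SE, adjusted p = 0.018), where 2.08% of all genes were called, 1.46% higher and 0.624% lower. The PRX37 call was lost without either WT flg22 library (adjusted p = 0.080 and 0.082). The PRX53 call was lost without WT flg22 replicate 1 (adjusted p = 0.067) or either rdd flg22 library (0.062 and 0.10). The same direction of PRX37 was seen in flg22 leaves at 24 h, at 3.24, 1.48 and 4.50 FPKM in WT and 0.09, 0.30 and 1.95 FPKM in rdd, where the groups overlapped and the test was not passed (-1.26 ± 0.38, adjusted p = 0.76). The response to earlier flg22 was not called as different between genotypes for any member: by limma 0 were called, where 0.0956% of all genes were called. Of the members, 9 had an unadjusted p under 0.05, and the share of all genes under that unadjusted limit was not worked out.

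Leaves with and without hrcC bacteria came from separate sets of libraries. The bacteria, the set and the further hour cannot be told apart. In WT water leaves 7 of 28 members tested were higher with hrcC and 7 lower, where 45.2% of all genes were called, 21.6% higher and 23.6% lower. In WT flg22 leaves 12 were higher and 2 lower, where 47.6% were called, 18.9% higher and 28.7% lower. In rdd water leaves 11 were higher and 6 lower, where 46% were called, 22.1% higher and 24% lower. In rdd flg22 leaves 11 were higher and 5 lower, where 48.6% were called, 19% higher and 29.7% lower. AT3G21770, AT5G06730 and PRX72 passed the filter through hrcC libraries alone, so they could only be higher. All of them are among the higher members in WT flg22 leaves and in rdd water leaves. AT5G06730 and PRX72 are also among those in rdd flg22 leaves. CAB2, a light-harvesting gene that follows light and the clock, was lower with hrcC by log2 differences between -6.13 and -7.05 in the 4 comparisons, and its part was not tested.

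PER4, nearly silent in the 24 h leaves, was high with hrcC. It was at 64.86 and 60.06 FPKM in WT and at 74.9 and 93.59 FPKM in rdd with water and hrcC, and at 119.61 and 103.77 FPKM in WT and 105.12 and 95.24 FPKM in rdd with flg22 and hrcC. Every hrcC library was far above every 24 h leaf library, with log2 differences of 5.28 to 5.95 in the 4 comparisons. AT5G39580 was at 102.2 and 60.21 FPKM with water and hrcC and at 204.72 and 205.5 FPKM with flg22 and hrcC in WT, with log2 differences from the leaves without hrcC of 6.06 ± 0.27 (SE, adjusted p = 1.3e-09) and 4.21 ± 0.27 (SE, adjusted p = 4.5e-08). AT1G14550, the neighbour of PER4, stayed at or below 0.08 FPKM in all leaf libraries.

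PRXR1 was lower in the hrcC set. It was at 369.01 and 254.88 FPKM with water and hrcC and at 219.95 and 215.47 FPKM with flg22 and hrcC in WT, below all 12 libraries of the 24 h leaves. The log2 difference was -2.52 ± 0.29 (SE, adjusted p = 8e-06) in water leaves and -1.82 ± 0.29 (SE, adjusted p = 0.00015) in flg22 leaves of WT. AT3G32980, at 20.8, 18.52 and 3.35 FPKM in WT water leaves, was at 1.47 and 0.37 FPKM with water and hrcC, a log2 difference of -2.74 ± 0.72 (SE, adjusted p = 0.0064) that was lost without hrcC water replicate 2 (0.077). AT2G37130 was at 48.41 and 40.14 FPKM with flg22 and hrcC in WT, a log2 difference of -3.52 ± 0.81 (SE, adjusted p = 0.0024) from the flg22 leaves without hrcC. Replicate 3 of the 24 h leaves has an organelle share close to that of the hrcC set. A fit against replicate 3 alone, chosen after seeing the data, leaves 1 library without hrcC per group, so its counts are not given.

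Neighbouring copies need care. The members form 11 pairs of neighbours on the chromosomes, and how reads shared by near-identical copies were split is not given in the sources used here. Single members of a pair are therefore uncertain where their sequences are close. PRX33 and PRX34 are not among the 11 pairs, but the same care holds for them, since no sequences were compared. AT1G05240 was at 87.95, 61.48 and 67.76 FPKM in WT seedlings at 0 h, while its neighbour PRX2, a lignin-linked member, was at 1.01, 0 and 3.5 FPKM. PRX2 was listed at 0 in all 3 WT libraries at 3 h and reached 6.73 FPKM in rdd at 0 h. AT4G08780, the neighbour of PRX37, stayed between 2.47 and 7.94 FPKM in seedlings and was not called between genotypes. Within rdd, PRX37 and AT4G08780 were both called higher at 1 h than at 0 h. The log2 change of AT4G08780 was 0.88 ± 0.25 (SE, adjusted p = 0.022), a call lost without rdd 0 h replicate 1 or 3 or rdd 1 h replicate 1 or 2 (0.060 to 0.10). In hrcC leaves both were higher after flg22, with AT4G08780 at 0.39 and 0.25 FPKM with water first and 7.77 and 7.92 FPKM with flg22 first in WT, a log2 difference of 2.75 ± 0.18 (SE, adjusted p = 5.9e-05). AT4G08780 was tested in the hrcC set through flg22 libraries alone and could only be higher there. PRX53 and its neighbour AT5G06730 also differed, since AT5G06730 did not pass 2.35 FPKM in any library.

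In seedlings the enzymes that make the substrates of these peroxidases mostly rose. Of 19 genes of monolignol synthesis, 11 rose and 1 fell in WT seedlings at 1 h and 14 rose and 0 fell at 3 h, with 10 and 12 rising and 0 falling in rdd. The shares of all genes called higher were 9.62% and 12.1% in WT and 10.2% and 8.04% in rdd. The median log2 change of this list at 3 h in WT was 0.93. PAL1 (AT2G37040), an entry enzyme of the phenylpropanoid pathway, rose from 59.8 ± 7.37 FPKM at 0 h to 242 ± 62.6 FPKM at 3 h in WT (SD, n = 3), a log2 change of 1.97 ± 0.19 (SE, adjusted p = 1.1e-06). C4H, which acts next, changed by 1.60 ± 0.10 (SE, adjusted p = 7e-09). In leaves at 24 h, 12 of 18 tested rose in WT and 8 in rdd, with 0 falling, where 14.8% and 12.8% of all genes rose, and FAH1, the ferulate 5-hydroxylase, changed by 2.31 ± 0.25 (SE, adjusted p = 0.00036) in WT. In hrcC leaves 8 of 18 were higher after flg22 in WT and 6 in rdd, with 0 lower, where 22.4% and 22% of all genes were higher. Between the genotypes the only call on this list was PAL3, lower in rdd at 0 h by -0.96 ± 0.17 (SE, adjusted p = 0.015). That call was lost without WT 0 h replicate 2, rdd 0 h replicate 2 or rdd 0 h replicate 3 (adjusted p = 0.057 to 0.098).

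The NADPH oxidases, which supply the superoxide that becomes hydrogen peroxide, were mostly not called in seedlings. Of 6 tested, 0 were called in WT at 1 or 3 h. RBOHD, the enzyme of the flg22-triggered burst, was called in rdd at 1 h at 1.56 ± 0.36 (SE, adjusted p = 0.0055) and had 1.05 ± 0.36 (SE, adjusted p = 0.057) in WT, where it was called without WT 0 h replicate 3 (1.26 ± 0.40, adjusted p = 0.050) or WT 1 h replicate 3 (1.43 ± 0.36, adjusted p = 0.011). In hrcC leaves RBOHF was higher after flg22 by 1.53 ± 0.12 (SE, adjusted p = 1e-04) in WT and 1.83 ± 0.12 (SE, adjusted p = 9.6e-05) in rdd. With hrcC against none, all 3 tested were higher in each of the 4 comparisons, beside 18.9% to 22.1% of all genes. The bacteria, the set and the further hour cannot be told apart there. Of the laccases, the other enzymes that couple monolignols, 2 of 13 tested fell and 0 rose in WT seedlings at 3 h, with LAC17 at -1.31 ± 0.25 (SE, adjusted p = 0.0013) and LAC11 at -0.93 ± 0.22 (SE, adjusted p = 0.0066). In rdd at 3 h 1 rose, LAC8 at 0.76 ± 0.22 (SE, adjusted p = 0.027), and 2 fell, LAC17 at -0.84 ± 0.25 (SE, adjusted p = 0.031) and LAC2 at -0.62 ± 0.18 (SE, adjusted p = 0.029). Each of these 3 rdd calls was lost without 4 of the 6 libraries, one at a time, among them rdd 0 h replicate 3 and rdd 3 h replicate 3 (adjusted p = 0.051 to 0.12). In leaves at 24 h, 0 of 5 tested rose and 1 fell in either genotype.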

How the data were processed

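RNA-seq of 38 libraries was analysed; the other 32 of the 70 samples, bisulfite libraries, were not analysed here. The deposited values are FPKM made by the authors: the files name no unit, and it was inferred from the values, so it is an inference. Per the submitters' processing notes, TAIR10, Trim Galore, HISAT2, SAMtools, Picard, featureCounts, DESeq2 and BSMAP were used, with no role or version given. How the authors treated strand and reads shared between copies is not given in the sources used here. The FPKM could not be turned back into reads, so a count test was not possible, depth is unknown, and no counting interval is given. FPKM totals differ between libraries, and a few very high genes can shift all others.

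The values were tested with limma 3.58.1 in R 4.3.3 on log2(FPKM + 1), in place of the count test that was planned should counts be found. Genes needed at least 1 FPKM in 3 libraries (2 in the hrcC set and in the sets joined across experiments). All groups of a set shared 1 fit with a trended, robust prior. Benjamini-Hochberg adjustment covered all genes tested, and adjusted p under 0.05 was called. Fold changes are on the log2(FPKM + 1) scale, which understates changes of low genes. There were 24 comparisons, and none of the p-values is adjusted over comparisons. The fit was tested on simulated data. Nothing in the labels says that libraries came from separate cultures or plants, so p-values measure the spread between these libraries, which may be technical.

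In the 24 h leaves the residuals of same-numbered libraries of different groups correlated at 0.31 to 0.91 in all 18 pairs. Those of differently numbered libraries ran from -0.84 to 0.74 over 36 pairs. Replicates 1 and 2 were alike across numbers, with 0.74 between WT water replicate 1 and rdd water replicate 2, and replicate 3 stood apart. What showed was mainly this split of replicate 3 rather than a pairing by number, and the replicate block is given there.

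The rule for members given in full took called members whose higher group has a mean of 5 FPKM or more, at most 6 per direction and comparison, of which the text prints most and leaves some to counts. Members outside this rule (PRX33, PER4 in leaves, RCI3, AT4G37530 and others) were added for their role or their use in another comparison, after their values were seen. The members and gene lists were chosen with earlier results of these data known. Names follow RefSeq (TAIR10.1), in which 32830 of the 33597 listed genes were matched. Alternatives were the pseudocount (0.1 FPKM), no filter, median-ratio scaling, organelle genes left out, the replicate block, only the compared groups, and each library left out. One marker gene result is not reported here.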

Additional observations from a re-analysis of the deposited data

How the results depend on the processing

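Over 241 calls of single members, 168 held in every alternative and 73 were lost in at least 1, and 0 changed direction. Of 2819 values of these calls 276 fell short of the threshold. Depth is unknown, so no limit from counting can be given, and groups of 2 or 3 libraries limit the precision. Without a library of the hrcC set, a group has 1 library, assumed to vary like the other groups.

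Counts that moved by over 1.5 times were few. The shares of all genes called were not worked out for the alternatives. Between genotypes at 1 h in seedlings, 1 member was called with median-ratio scaling and 1 with the replicate block, against 0, and leaving out a library gave 0 to 2. The rdd response at 3 h had 6 calls with only the compared groups fitted, against 16, and leaving out a library gave 11 to 19. Between genotypes at 3 h, 0 were called with only the compared groups, against 3, and leaving out a library gave 1 to 8. For the rdd response at 1 h, leaving out a library gave 7 to 12 calls, for the difference in response at 3 h 0 to 1, for the rdd leaf response 9 to 15 and for hrcC against none in rdd water leaves 10 to 16. Between genotypes in hrcC leaves with water first, 0 were called with no filter, with the replicate block and with only the compared groups, against 1, and leaving out a library gave 0 to 2. With flg22 first, 1 was called with only the compared groups, against 2, and leaving out a library gave 0 to 2. The cause was not tested.

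In seedlings and hrcC leaves the replicate number is only a number: residuals of same-numbered libraries correlated at -0.29 to 0.35 and at -0.10 to 0.11. The replicate block lost the PER4 call between genotypes at 3 h (-1.40 ± 0.32, adjusted p = 0.062) and the PRX37 call in hrcC water leaves (-1.09 ± 0.19, adjusted p = 0.081). The median log2 change of all genes lay at -0.142 for rdd at 3 h as deposited and at -0.036 with median-ratio scaling. The promoter motif search that was planned (W-box) was not run, since no sequence table was at hand.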
